A study of Mus musculus with 6 samples.

Results

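Curated noncoding transcripts were read in livers of wild-type (WT) and Gα12 knockout mice through the array probes that carry a RefSeq NR accession, the prefix RefSeq gives to transcripts without an annotated protein. Of 837 such probes, 299 were well above background (the scanner software's own call) on at least 3 of the 6 arrays and were kept, 35.7% of them. They stand for 257 accessions and 224 named genes. Rdh18-ps and transcripts of the X chromosome were left out of every count. Members were thus selected on measured signal, so a probe's presence in the set is not a result. Probes well above background on exactly 3 arrays, 44 of them, had mean levels from -4.05 to -2.04 on the log2 scale, and the 37 left out with exactly 2 such arrays had means from -4.35 to -2.60.

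The 6 arrays were 1-colour Agilent mouse expression arrays, 3 from WT livers and 3 from livers of mice without Gα12, a heterotrimeric G protein α subunit encoded by Gna12. All mice were males of 8 weeks on chow, fasted overnight, on a background that was 95% C57BL/6 with 129/Sv. The labels give no promoter, tissue restriction or further detail of the Gna12 allele. Levels are log2 signals minus the array's 75th percentile, differences are knockout minus WT, and 1 unit on this scale is a doubling. The labels speak of 3 mice in each group and 1 array was taken to be 1 mouse, and the number of arrays limits the precision.

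Noncoding RNAs of the liver fall into groups that work in different ways. Host transcripts carry small nucleolar RNAs (snoRNAs, guides for chemical modification of ribosomal RNA) in their introns, or microRNAs (miRNAs, which pair through their seed with messenger RNAs and repress them) in introns or exons, and the spliced remainder is often degraded by nonsense-mediated decay. Long noncoding RNAs (lncRNAs) include nuclear scaffolds and imprinted antisense transcripts, while pseudogenes are copies of coding genes whose reading frame is lost. By the RefSeq GRCm38.p6 table the 299 probes comprised 17 for host transcripts, 136 for other lncRNAs, 94 for pseudogenes, 9 for structured RNAs, 4 for noncoding variants of coding genes and 39 whose accession the table did not name. The host transcripts were those on lists of snoRNA and miRNA hosts by name. Hosts were kept more often than lncRNAs, with 17 of 24 host probes (70.8%), 136 of 511 lncRNA probes (26.6%) and 94 of 206 pseudogene probes (45.6%) passing, beside 58.5% of probes with a coding (NM) accession.

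The miRNAs processed from 3 of the host transcripts are shown here because these hosts carried the larger host differences described below or share a seed. The arrays read the hosts, and mature miRNAs were not measured. Sequences are from RefSeq (GRCm38.p6), written 5′ to 3′ with the seed, bases 2 to 8, in capitals.
mmu-miR-99a-5p: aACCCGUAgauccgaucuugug
mmu-let-7c-5p: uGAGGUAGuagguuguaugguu
mmu-miR-125b-5p: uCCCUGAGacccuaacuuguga
mmu-miR-17-5p: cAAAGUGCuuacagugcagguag
mmu-miR-92a-3p: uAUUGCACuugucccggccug
mmu-miR-15a-5p: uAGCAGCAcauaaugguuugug
mmu-miR-16-5p: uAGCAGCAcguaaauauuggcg
The first 3 are known products of Mir99ahg on chromosome 16 and the next 2 of Mir17hg on chromosome 14. The last 2, carried by Dleu2 on chromosome 14, have the same seed. In the table, the interval of Mir17hg held the gene of miR-92a (chr14:115044476-115044496 for the mature form, plus strand) but not that of miR-17, and the interval of Mir99ahg held none of its 3. Mirg on chromosome 12 held 10 miRNA genes with other seeds, among them those of the following.
mmu-miR-410-3p: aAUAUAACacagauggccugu
mmu-miR-377-3p: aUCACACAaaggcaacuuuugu
mmu-miR-409-3p: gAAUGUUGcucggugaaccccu

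Transcripts that host snoRNAs often start in a run of pyrimidines, the feature that marks messenger RNAs of the translation machinery. A run of at least 5 C or T on the transcript's strand that reached within 5 bases of the annotated start was sought. It was found in 12 of 16 hosts with a promoter entry (75%), miRNA hosts among them. Of the 8 named Snhg or Dancr, 6 had it (75%). The same held for 34 of 104 other lncRNA members (32.7%) and for 32.9% of all 27025 promoters in the table. The annotated starts of 6 hosts are shown, 20 bases before and 20 from the start on, with the longest such run in capitals. First come 4 long runs, of which those of Dleu2, a miRNA host, and Snhg10 end before the annotated start. Then come Dancr and Mir17hg, where no run of that length was found. The annotated start of Mir17hg lies downstream of mature miR-17 (chr14:115043684-115043706, plus strand), a known product of that host. Where transcription of Mir17hg begins was not examined.
Dleu2 (chr14:61682354-61682393, minus strand): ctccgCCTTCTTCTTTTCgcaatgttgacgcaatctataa
Snhg12 (chr4:132308658-132308697, plus strand): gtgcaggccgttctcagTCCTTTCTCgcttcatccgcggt
2410006H16Rik (chr11:62602857-62602896, plus strand): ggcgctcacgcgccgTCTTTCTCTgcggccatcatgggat
Snhg10 (chr12:105032260-105032299, minus strand): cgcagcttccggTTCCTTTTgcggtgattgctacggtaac
Dancr (chr5:74093040-74093079, plus strand): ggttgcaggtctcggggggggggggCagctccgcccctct
Mir17hg (chr14:115044370-115044409, plus strand): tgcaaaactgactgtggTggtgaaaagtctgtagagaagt
The build is GRCm38.p6. Host and lncRNA members had promoter medians of 18 and 17 CpG in 300 bases. The medians were 13 over protein-coding promoters, 7 over all promoters and 4 over all lncRNA promoters. The members had been selected on signal and these other sets had not. The letters TATAAA on either strand occurred in the 250 bases before the start in 4 of 16 hosts (25%) and in 13% of all promoters. These matches describe the windows only.

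The array facts that touch every value follow. The arrays lay on 1 slide with the WT livers in row 1 and the knockout livers in row 2, and effects of position and of genotype cannot be told apart. WT replicates 1 and 2 stood apart: over the members, their correlation with each other was 0.967 and with the knockout arrays 0.855 to 0.92, while WT replicate 3 correlated with the knockout arrays at 0.963 to 0.985 (Pearson, across probes, which are not replicates). Probes of 1 transcript also spread more on those arrays. Among 30 accessions with several kept probes the median spread was 2.08 and 1.93 log2 units on WT replicates 1 and 2, and 0.99 to 1.25 on the others. Gna12 had 1 probe, well above background on WT replicate 3 only, so it gives little check of the labels. Liver identity held, with 6 of 6 hepatocyte markers kept at a summed level of 11.57 to 12.32 in WT and 11.81 to 12.22 in the knockout. Kept muscle markers (2 of 5) summed to -2.90 to -1.91 in WT and -1.87 to 1.28 in the knockout. Kept stellate cell markers (4 of 5) summed to 6.37 to 7.15 in WT and 5.98 to 6.25 in the knockout, and the part of these facts in the differences below was not tested.

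None of the 299 probes passed an adjusted p of 0.05 (limma with Benjamini-Hochberg adjustment over all 23132 kept probes, 0% called), and the lowest adjusted p among them was 0.166. At an unadjusted p below 0.05, 54 members were lower in the knockout (18.1%; background 15.4%) and 20 were higher (6.69%; background 5.62%), so both shares lie near those of all probes. Groups did not overlap for 60 members that were lower (20.1%; background 18.8%) and 15 that were higher (5.02%; background 5.52%). The median difference was -0.45, beside -0.38 over all kept probes. With the 75th percentile taken over probes well above background on all 6 arrays, these medians became 0.03 and 0.09. The lower share of members at unadjusted p below 0.05 went from 73.0% to 52.9% (27 lower, 24 higher). Over all kept probes it went from 73.3% to 49.4%, so directions are read against the median of all probes. WT replicate 3 decided the count: without it, limma called 148 members (101 lower, 47 higher) at adjusted p below 0.05, along with 13123 of all 23132 probes. Without WT replicates 1 and 2, which leaves 1 WT array, the median difference was -0.11 over members and -0.05 over all kept probes.

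Detection differed between the WT and knockout arrays, in the members and over all probes. The WT arrays had 281, 282 and 297 members well above background, and the knockout arrays 239, 234 and 254. Over all probes the counts were 22951, 23530 and 28752 on the WT arrays and 21778, 20953 and 22585 on the knockout arrays. Of the members, 29 (9.7%) passed the filter through WT arrays alone, beside 4.96% of all kept probes, and none did so through knockout arrays alone, so some lower values were fixed by the filter. Of the 54 lower members, 22 were not well above background on any knockout array. Among the 210 members well above background on all 6 arrays, 21 were lower (10%; background 13.3%) and 14 higher (6.67%; background 4.51%) at unadjusted p below 0.05. For bulk liver, fewer cells of a type and less RNA per cell cannot be told apart.

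The classes differed in their medians. Hosts had a median difference of -0.72, with 16 of 17 below 0 (94.1%), beside 65.5% of all kept probes below 0. Other lncRNAs had -0.54, with 95 of 136 below 0 (69.9%, near that share), and pseudogenes -0.17, with 53 of 94 below 0 (56.4%). The percentile over probes bright on all arrays shifts all classes alike, to -0.24, -0.07 and 0.30. Without the filter on dim probes the medians were -0.57 for hosts, 0.43 for lncRNAs and 0.25 for pseudogenes, so the order of lncRNAs and pseudogenes turned round. At an unadjusted p below 0.05, 36 lncRNA probes were lower (26.5%) and 8 higher (5.88%), whereas 5 pseudogene probes were lower (5.32%) and 7 higher (7.45%). The shares over all kept probes were 15.4% lower and 5.62% higher. The filter bears on this contrast: 21 lncRNA probes (15.4%) and 3 pseudogene probes (3.19%) were kept through WT arrays alone. Among probes well above background on all arrays, the lower counts were 12 of 80 lncRNA and 4 of 80 pseudogene probes. Of all such probes 13.3% were lower, and the lncRNA count lies near that share. Medians of each WT array against the knockout mean also differed, at 1.60, 0.40 and 0.40 for hosts on WT replicates 1 to 3, at 0.93, 0.59 and 0.22 for lncRNAs and at 0.37, 0.15 and 0.02 for pseudogenes. The 94.1% of hosts below 0 holds for hosts listed by name. Mir99ahg is counted there, though its interval held no snoRNA or miRNA gene. Among the other lncRNAs, 2 held snoRNA genes, and 4833422C13Rik and 9330159M07Rik differed by 0.29 and -0.21. Another 2 held miRNA genes, and D7Ertd143e and E130112N10Rik differed by 0.47 and -1.20. The difference between classes was not tested.

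**Figure D1:**
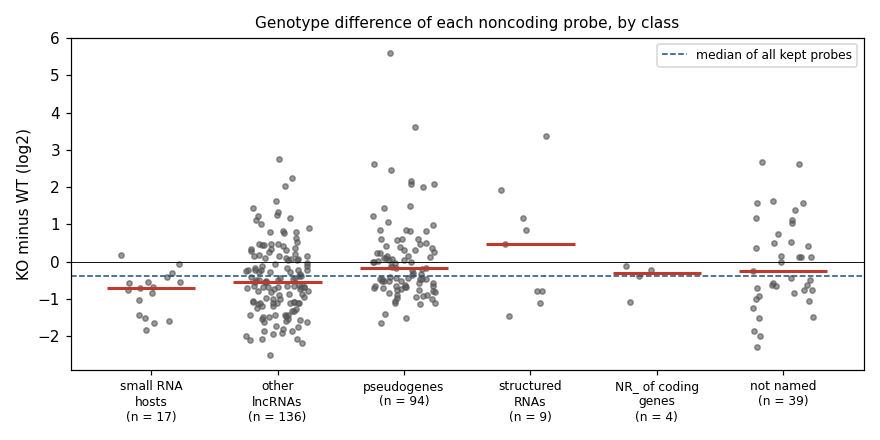
Knockout minus WT difference (log2, vertical axis) of each of the 299 noncoding probes by class, with 1 point per probe, the class median as a red bar and the median of all kept probes (-0.38) as a dashed line. Host and lncRNA medians (-0.72 and -0.54) lie below the dashed line and the pseudogene median (-0.17) above it.

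Among the hosts of miRNAs, Mir99ahg was the 1 host whose groups did not overlap, and the filter kept it through WT arrays alone, which favours a lower knockout value. Its levels, in order of replicate number here and in all that follows, were -1.26, -1.76 and -2.03 in WT and -3.02, -3.84 and -2.69 in the knockout, with no knockout array well above background. The difference was -1.50 (SE 0.41; limma adjusted p = 0.235), or 2.83-fold, and -1.16 against WT replicate 3 alone. Where a fold is called at least below, the mean of the bright group was compared with a floor on each dim array. The floor is the weakest signal that still counted as well above background there, or the probe's own signal if that was higher. Such a bound takes no account of the SE and holds for this scaling.

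Mir17hg, precursor of the oncogenic miR-17 cluster, had WT levels of -1.66, -1.90 and -0.41 and knockout levels of -3.03, -4.71 and -1.74. The groups overlapped because knockout replicate 3 lay above WT replicate 2, and 1 knockout array was well above background (difference -1.84, SE 0.76; limma adjusted p = 0.235). Meg3 and Mirg are transcribed from the maternal chromosome within the same imprinted region of chromosome 12. Meg3 was at 3.67, 2.35 and 2.13 in WT and at 0.24, 1.38 and 2.23 in the knockout (difference -1.43, SE 0.61). Mirg was at 0.92, -0.49 and -1.48 in WT and at -2.94, -1.99 and -1.03 in the knockout (difference -1.64, SE 0.70). In both, knockout replicate 3 reached into the WT range and knockout replicate 1 was lowest. Dleu2, host of miR-15a and miR-16, spanned 3.35 to 3.89 in WT and 3.24 to 3.87 in the knockout. Its difference of -0.07 (SE 0.33) changed sign under other scalings. Mir22hg, host of miR-22, differed by -0.29 (SE 0.39). Of the 7 miRNA hosts kept, from a list of 20 with 10 on the array, 4 were lower and none higher at an unadjusted p below 0.05, beside 16.6% lower and 3.98% higher of 12297 named genes. The 4 include Mir99ahg, which the filter kept through WT arrays alone. The list's median was -1.43 beside -0.49 over all named genes. The list also holds 1110038B12Rik, whose interval in the table carries snoRNA genes and no miRNA gene.

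Hosts of snoRNAs gave smaller differences. Of the 11 kept, from a list of 28 with 12 on the array, 2 were lower and none higher at an unadjusted p below 0.05, namely Snhg18 and Meg3. The share lower, 18.2%, is near the 16.6% of all named genes. Meg3 is on both lists, and its interval in the table holds miRNA genes and no snoRNA gene. The interval of Snhg10 likewise holds a miRNA gene, Mir3069, and no snoRNA gene. The median of the 11 was -0.69, and 10 lay below 0 (90.9%, beside 72.3% of all named genes). Snhg3, which holds the genes of Snora73a and Snora73b, was at 3.85, 3.16 and 2.41 in WT and at 1.67, 2.06 and 2.63 in the knockout (difference -1.02, SE 0.46; limma adjusted p = 0.239). The groups overlapped through WT replicate 3 and knockout replicate 3. Snhg18, which holds Snord123, was at -1.30, -1.27 and -2.75 in WT and at -2.59, -4.33 and -3.17 in the knockout, where no array was well above background (difference -1.59, SE 0.59; 3.01-fold). Snhg7, Snhg16 and Snhg12 differed by -0.76, -0.72 and -0.69, Dancr and 2410006H16Rik by -0.57 and -0.55, and Snhg6 and Snhg10 by -0.54 and -0.40, and each of them had overlapping groups. Snhg1, with 8 snoRNA genes in its interval, was the exception in sign at 0.19 (SE 0.42).

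WT replicate 1 was the highest of the 6 arrays for most of the hosts. For 2410006H16Rik it read 4.23 beside 2.17 to 2.74 on the other arrays, and for Snhg6 it read 5.21 beside 3.30 to 4.06. Against WT replicate 3 alone, Snhg12 differed by -0.05, 1110038B12Rik by 0.03 and 2410006H16Rik by 0.14, while Mir17hg differed by -2.75 and Mir22hg by -0.85. Of the 17 hosts, 12 lay below 0 in that comparison, beside 16 with all arrays.

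**Figure D2:**
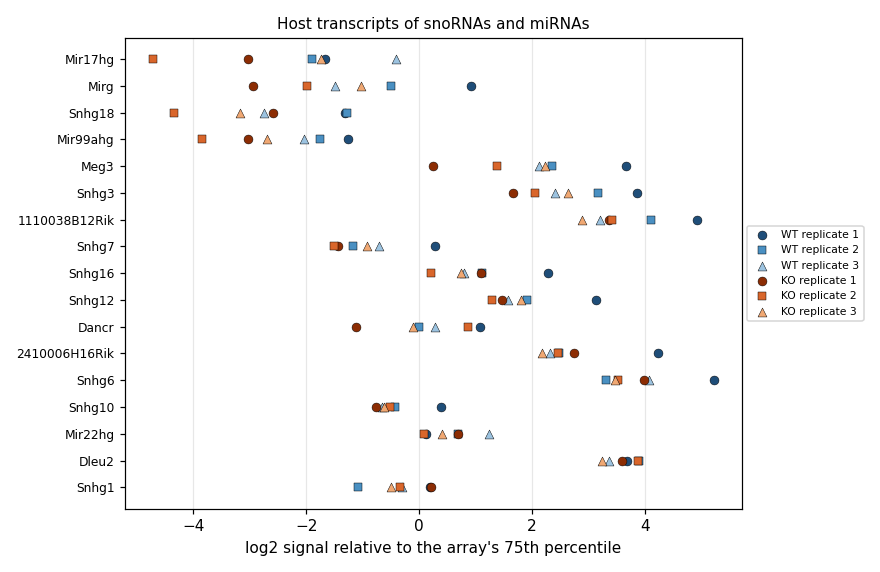
Level of each of the 17 host transcripts (log2 signal relative to the array's 75th percentile, horizontal axis) on each of the 6 arrays, WT in blue and knockout in orange, ordered by difference. Blue and orange points overlap for every host other than Mir99ahg, and WT replicate 1 (dark blue circle) is often the rightmost point.

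Coding genes of the same pathways were read beside the shares of all named genes, 16.6% lower and 3.98% higher. The core proteins of snoRNA particles (7 genes kept, among them Fbl, Nop56 and Nop58) had a median difference of -0.85, with none past an unadjusted p of 0.05. Their medians against the knockout mean were 1.39, 0.94 and -0.15 on WT replicates 1 to 3, so WT replicate 3 did not read higher. The 44 coding snoRNA hosts kept had -0.52, near the -0.49 of all named genes, with 2 lower (4.55%; Prpf39 at -1.51 and Ptcd3 at -1.09) and 1 higher (2.27%; Cct6a at 2.93). Of 14 miRNA processing genes 3 were lower (21.4%), namely Ago4 (-1.03), Ddx5 (-1.22) and Tnrc6a (-1.74), and none higher, with a median of -0.52. Of 11 genes of nonsense-mediated decay, which degrades spliced host transcripts, 1 was lower (9.09%; Upf2 at -1.02) and none higher, with a median of -0.02.

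The imprinted antisense transcripts both read lower on average. Airn, the paternal antisense transcript that silences Igf2r on the same chromosome, was at 0.69, -0.14 and 0.53 in WT and at -1.88, -0.73 and -0.62 in the knockout. The groups did not overlap and all 6 arrays were well above background (difference -1.44, SE 0.45; limma unadjusted p = 0.0131 and adjusted p = 0.235). Against WT replicate 3 alone the difference was -1.60, and under the percentile over bright probes -0.96. Igf2r itself differed by -0.94 (SE 0.46) with overlapping groups. Kcnq1ot1, the antisense transcript that silences Cdkn1c and its neighbours, was at -0.22, -2.30 and -1.45 in WT and at -4.66, -3.78 and -1.11 in the knockout. Knockout replicate 3 was above 2 of the WT arrays and the only knockout array well above background (difference -1.86, SE 0.93). Cdkn1c differed by -0.88 (SE 0.29) without overlap and Kcnq1 by -0.96 (SE 0.44) with overlap. Igf2r, Cdkn1c and Kcnq1 were chosen after values had been seen.

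The nuclear scaffold RNAs varied widely between arrays of 1 genotype. Malat1, found in nuclear speckles, was at -0.07, -1.90 and -2.16 in WT and at -4.32, -3.90 and -1.64 in the knockout (difference -1.92, SE 0.82; limma adjusted p = 0.237). Only 1 knockout array was well above background for Malat1. Neat1, the scaffold of paraspeckles, was at 5.21, 3.78 and 2.97 in WT and at 2.59, 2.26 and 3.85 in the knockout (difference -1.09, SE 0.65). In both, knockout replicate 3 lay within the WT range and the other knockout arrays below it. Against WT replicate 3 alone, Malat1 differed by -1.14 and Neat1 by -0.07. The 7 kept genes of paraspeckle proteins had a median of -0.09, and 1 of them, Hnrnpk, had an unadjusted p below 0.05 (difference 2.61). Its groups overlapped, since WT replicate 3, at 3.62, was above every knockout array and the other two WT arrays were at -1.37 and -0.12.

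Where a lncRNA had several probes, the probes could oppose each other. Norad, a cytoplasmic RNA that binds Pumilio proteins, had 4 kept probes. A first was at -0.09, 0.39 and 0.46 in WT and at 1.17, 0.99 and 0.90 in the knockout (difference 0.77, SE 0.32). A second was at -0.61, -0.39 and -0.45 in WT and at -1.22, -1.18 and -1.09 in the knockout (difference -0.68, SE 0.29). Both separated the genotypes, in opposite directions, and the other two differed by 0.46 and 1.17 with overlapping groups. Tug1 gave 0.36, -0.18 and -0.88 from 3 probes and Pvt1 gave 1.25 and 0.17 from 2, all with overlap. Of the 30 accessions with several kept probes, 9 had differences of opposite sign and for 10 they were more than 1 log2 unit apart.

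**Figure D3:**
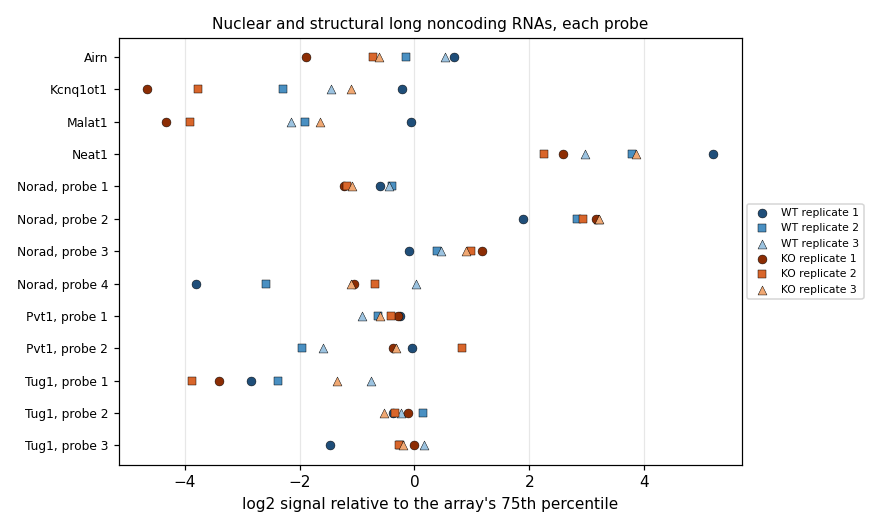
Level of each probe for 7 long noncoding RNAs (log2 signal relative to the array's 75th percentile, horizontal axis) on each of the 6 arrays, WT in blue and knockout in orange. The knockout points lie below all WT points for Airn, and the Norad probes separate the genotypes in opposite directions.

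Several lesser known lncRNAs were read well above background in WT alone. The lncRNA 9430083A17Rik was at -2.51, -3.09 and -2.11 on the WT arrays and at -4.95, -4.65 and -4.69 on the knockout arrays. All WT arrays and no knockout array were well above background, and the difference was -2.19 (SE 0.36; limma adjusted p = 0.166; at least 4.51-fold). Gm14207 was at -1.89, -2.22 and -2.90 in WT and at -4.49, -4.72 and -4.02 in the knockout (difference -2.07, SE 0.39; at least 4.12-fold). C030034I22Rik was at -2.44, -3.16 and -3.41 in WT and at -4.84, -4.54 and -4.88 in the knockout (difference -1.75, SE 0.36; 3.37-fold). On these 3 probes the WT arrays were dim but well above background and the knockout arrays were not, so the filter kept them through WT alone and their differences are read against values near background. A second kept probe of C030034I22Rik overlapped, with knockout replicate 2 well above background at -0.54 beside WT values of 0.45, -0.62 and -1.90 (difference -2.09, limma unadjusted p = 0.0715). With background corrected by normexp their differences shrank to -0.65, -0.67 and -0.75. Against WT replicate 3 alone they were -2.65, -1.51 and -1.34.

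Brighter transcripts also separated. Gm10768 was at 5.82, 5.24 and 4.11 in WT and at 3.08, 3.62 and 4.07 in the knockout (difference -1.46, SE 0.51), and WT replicate 3 and knockout replicate 3 nearly met. The accession NR_015528, not named by the table, was at 5.17, 4.18 and 3.47 in WT and at 1.76, 2.31 and 1.90 in the knockout (difference -2.28, SE 0.47; limma adjusted p = 0.228). Its groups lay more than 1 log2 unit apart on arrays that were all well above background, and it differed by -1.48 against WT replicate 3 alone. Among 12 antisense or opposite-strand lncRNAs, 5 were lower without overlap (41.7%; 18.8% of all kept probes) and none higher. The median difference of the 12 was -0.39, near the -0.38 of all kept probes. At an unadjusted p below 0.05, 1 of the 12 was lower and 1 higher, the latter being G6bos at 2.25 (SE 0.74). One of the 5 was Hnf4aos, antisense to the hepatocyte factor gene Hnf4a, at 4.47, 3.99 and 3.03 in WT and 2.69, 2.75 and 2.84 in the knockout (difference -1.07, SE 0.42). Its groups were close at WT replicate 3, and the difference from that array alone was -0.27.

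Some lncRNAs were higher in the knockout. The lncRNA 3110070M22Rik was at -4.14, -3.56 and -3.81 in WT and at -2.65, -2.43 and -2.75 in the knockout (difference 1.23, SE 0.32; limma adjusted p = 0.235). Only 1 WT array was well above background, against all 3 knockout arrays, and the difference from WT replicate 3 alone was 1.20. E130304I02Rik was at 1.75, 1.84 and 3.51 in WT and at 3.66, 4.20 and 3.52 in the knockout (difference 1.43, SE 0.53). WT replicate 3 sat just below the knockout range there, so that the difference from that array was 0.28.

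**Figure D4:**
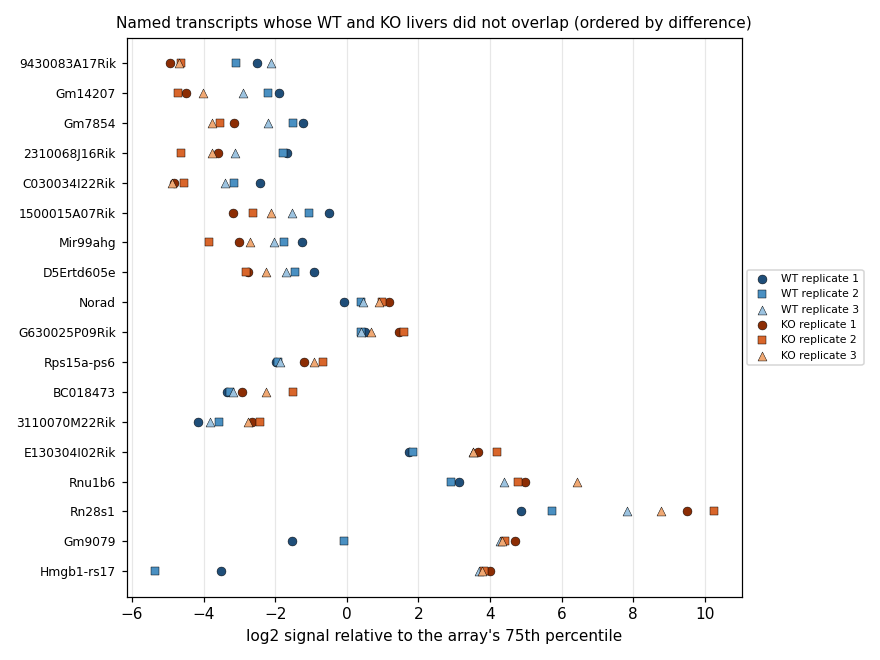
Level of each named transcript (log2 signal relative to the array's 75th percentile, horizontal axis) on each of the 6 arrays, for those named in each direction by smallest p among transcripts without overlap. The gap between WT (blue) and knockout (orange) is wide for 9430083A17Rik and 3110070M22Rik, while for Hmgb1-rs17 and Gm9079 WT replicate 3 (light blue triangle) lies beside the knockout points.

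Chromosome 5 carries Gna12 and 15 of the named members. D5Ertd605e, 94 coding genes away from Gna12 in the table's order, was at -0.91, -1.44 and -1.70 in WT and at -2.75, -2.80 and -2.25 in the knockout (difference -1.25, SE 0.36). Gm7854, 825 coding genes away, was at -1.23, -1.49 and -2.21 in WT and at -3.17, -3.54 and -3.77 in the knockout (difference -1.85, SE 0.38; 3.6-fold). No knockout array was well above background for Gm7854, so the filter kept it through WT arrays alone. For D5Ertd605e, 1 knockout array was well above background. Both separated the genotypes, and the nearest member to Gna12, 0610040B10Rik at 22 coding genes, differed by -0.48 with overlapping groups. 1500011B03Rik (on its brighter probe), 1700096K18Rik and 4831440E17Rik, at 365, 997 and 998 coding genes, were also lower without overlap, by -0.78, -0.94 and -1.14. Among those above 0 were Wbscr25 at 0.34, Gm5129 at 0.83 and 1700022A21Rik at 0.84, all with overlap. Mm2pr, at 103 coding genes, differed by -1.27, also with overlap. The part of the distance from Gna12 in these values was not tested.

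Structured RNAs went in both directions. They lack the poly(A) tail from which the labelling kit primes. Rn28s1, the RNA of the large ribosomal subunit, was at 4.87, 5.75 and 7.82 in WT and at 9.51, 10.25 and 8.79 in the knockout (difference 3.37, SE 0.76; limma adjusted p = 0.235). Every knockout array was above every WT array, and the difference was 1.70 from WT replicate 3 alone. NR_003278, which the table did not name, had a similar spread of WT values, at 5.19, 6.98 and 9.25, and 9.91, 9.98 and 9.40 in the knockout (difference 2.62, SE 0.91). Rnu1b6, a U1 small nuclear RNA of the spliceosome, was at 3.15, 2.92 and 4.39 in WT and at 4.99, 4.79 and 6.43 in the knockout, again without overlap (difference 1.92, SE 0.58). Rn4.5s, a small nuclear RNA of rodents, ran the other way at 9.82, 8.79 and 8.64 in WT and 7.52, 7.71 and 8.70 in the knockout, with overlap at knockout replicate 3 (difference -1.11, SE 0.47). Rnu12 of the minor spliceosome and Rnu3b1, which acts in ribosomal RNA processing, differed by -0.78 (SE 0.46) and -0.79 (SE 0.60). Rmrp, the RNA of RNase MRP, differed by 0.47 (SE 0.41), and all 3 overlapped.

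Of the 5 pseudogene probes named for their high signal, 3 had differences near 0. Gm5523 spanned 9.20 to 9.76 in WT and 9.29 to 9.68 in the knockout on its brighter probe (SE of the difference 0.32). Gm12070 and Gm6548 differed by -0.02 (SE 0.33) and 0.0036 (SE 0.32) on theirs. Gm10653 differed by -0.29 (SE 0.43) with overlapping groups. Probe sequences were not used here, so signal from a parent gene or another copy cannot be told apart from that of the pseudogene. H2-K2, a class I major histocompatibility pseudogene, was higher without overlap on both of its probes, by 0.62 (SE 0.33) and 0.60 (SE 0.34). One of them was at 7.37, 7.74 and 8.12 in WT and at 8.49, 8.41 and 8.17 in the knockout, so the groups nearly met at WT replicate 3.

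The positive differences of Hmgb1-rs17 and Gm9079 rested on WT replicates 1 and 2. Hmgb1-rs17 was at -3.52, -5.37 and 3.68 in WT and at 3.99, 3.84 and 3.78 in the knockout (difference 5.61, SE 2.02; limma adjusted p = 0.235). Gm9079 was at -1.54, -0.08 and 4.28 in WT and at 4.69, 4.43 and 4.34 in the knockout (difference 3.60, SE 1.30). In each, WT replicate 3 sat just under the knockout arrays and far above the other two WT arrays, and the differences from that array alone were 0.19 and 0.21. Gm8709 had 1 probe at 6.61, 7.40 and 7.99 in WT and 7.93 to 8.36 in the knockout, and another at -0.02, 1.56 and 4.73 in WT and 4.53 to 4.86 in the knockout. The same transcript therefore differed by 0.84 on the first and by 2.61 on the second. Gm5069 gave 0.03, 0.81 and 2.17 from 3 probes. For comparison, the 7 probes of the coding gene Gapdh spread over 9.58 and 7.79 log2 units on WT replicates 1 and 2 and over 4.01 to 4.87 on the other arrays, and the part of this in the pseudogene values was not tested.

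Without overlap, 12 pseudogene probes were lower (12.8%; background 18.8%) and 6 higher (6.38%; background 5.52%). For some of them the difference did not rest on WT replicates 1 and 2. Rps15a-ps6, a copy of a ribosomal protein gene, was at -1.99, -1.92 and -1.86 in WT and at -1.21, -0.68 and -0.92 in the knockout (difference 0.99, SE 0.31; limma adjusted p = 0.235). The difference from WT replicate 3 alone was 0.92. Smarca5-ps differed by -0.46 (SE 0.30) on 1 probe, and by -0.66 from WT replicate 3 alone. Its other kept probe, also lower without overlap, differed by -0.71 (SE 0.33). On that probe WT replicate 3 lay only 0.29 above the knockout mean. Pisd-ps1, a copy of the gene for phosphatidylserine decarboxylase, was at 5.51, 4.94 and 3.62 in WT and at 3.03, 3.13 and 3.41 in the knockout (difference -1.50, SE 0.50), but differed by only -0.43 from WT replicate 3 alone.

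Noncoding transcripts and the coding genes they are named for were set side by side, with no test of the pair. Among 10 opposite-strand transcripts with a kept partner, 5 had the sign of the partner, 8 lay below 0 and 7 partners did, beside 72.3% of all named genes below 0. Among 10 pseudogenes with a kept parent, 6 had the sign of the parent and 7 lay below 0, as did 8 of the 9 distinct parents (Pisd is the parent of both Pisd-ps1 and Pisd-ps3). These shares are near that of all genes. Hnf4aos differed by -1.07 and Hnf4a by -0.12 (SE 0.39), whereas Fbxl12os and Fbxl12 differed by -0.81 and -1.64 and Stk35os1 and Stk35 by -0.50 and -1.17. Rps15a-ps6 and Tubb2a-ps2 lay above 0, at 0.99 and 1.50, and their parents Rps15a and Tubb2a below it, at -0.81 and -1.02. Against WT replicate 3 alone these pseudogenes differed by 0.92 and -0.31, so the sign of Tubb2a-ps2 turned. Gpr137b-ps and Gpr137b were both lower without overlap, by -0.63 and -0.90.

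**Figure D5:**
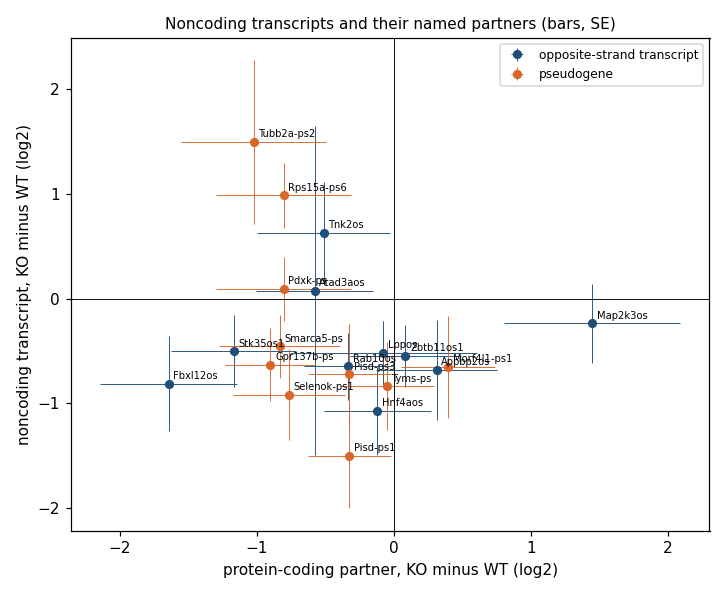
Knockout minus WT difference (log2) of each noncoding transcript (vertical axis) against that of the coding gene it is named for (horizontal axis), with bars of 1 SE, opposite-strand transcripts in blue and pseudogenes in orange. Of 20 pairs in 2 sets of 10, 5 opposite-strand and 6 pseudogene pairs lie in quadrants of equal sign.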

How the data were processed

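Cy3-labelled RNA of 6 livers was read with Agilent Feature Extraction 10.7.3.1, per the submitters' processing notes. The deposited scanner files give each spot's intensity on a linear scale, background-subtracted by that software. The matrix the authors deposited is on a log2 scale. Set against the scanner values, each of its columns was log2 processed intensity shifted by 1 constant, with no centring of probes. How the constants were chosen is unknown (column medians 4.41 to 4.70 in WT replicates 1 and 3, and 4.32 to 4.52 in the knockout; WT replicate 2 has missing values).

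Here log2 processed intensity minus the array's 75th percentile over non-control spots was taken, outlier spots were dropped, and a probe's spots were averaged. Of 55681 probes, 23132 were kept, with values on 6 arrays and well above background on at least 3; 4 accession probes bright enough were lost to outlier marks. Genotypes were compared with limma 3.58.1 in R 4.3.3 (lmFit, eBayes, two-sided), with Benjamini-Hochberg adjustment over all kept probes, after the code was tested on simulated data. P-values measure the spread between these samples.

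Names came from RefSeq (GRCm38.p6) by unversioned accession, and 31 accessions stayed unnamed. Members, lists and comparisons were chosen with earlier results of these data known. Named were members without overlap by smallest p (up to 12 in each direction, with 2 unnamed at most), all members on the host and nuclear lists, up to 5 of highest signal in each class, and members with a named partner. Other lncRNA and pseudogene values given for several probes of 1 transcript were chosen after their values were seen. The plan's normexp on mean signal used the median signal (offset 50), the column in the files. Alternatives were each array left out, replicate number as a block, other scalings, background corrections and filters, and another variance model.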

Additional observations from a re-analysis of the deposited data

How the results depend on the processing

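The deposited matrix, median and quantile scaling, normexp, the variance model and the block left the counts at unadjusted p below 0.05 (74) and without overlap (75) within 1.5 times and the median (-0.45) below 0. Leaving out 1 array gave 28 to 165 members at unadjusted p below 0.05, 84 to 202 without overlap and a median of -0.62 to -0.22. The share at unadjusted p below 0.05 ran from 9.365% to 55.18% of members, beside 6.657% to 62.97% of all kept probes. The low counts came without WT replicate 1, WT replicate 2, knockout replicate 1 or knockout replicate 2 (33, 38, 40 and 28), and the high ones without WT replicate 3. Without WT replicates 1 and 2 together, which leaves 1 WT array, 161 did not overlap, fewer arrays making overlap rarer, and the median was -0.11. With no filter, 274 of 833 probes had an unadjusted p below 0.05 (62 lower, 212 higher) and 350 did not overlap. The lower and higher shares, 7.44% and 25.5%, lie near the 7.91% and 22.2% of all 55324 probes. The median was 0.35, beside 0.28 over all probes, and the cause was not tested. With probes well above background on all 6 arrays, the counts were 41 and 43 of 210, with fewer probes tested. The 41 were 19.52%, beside 22.35% of all such probes. Under the percentile over such probes the median was 0.027, above 0. Limma's adjusted p called no member under any setting other than without WT replicate 3, beside 74 at unadjusted p below 0.05.

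Replicate numbers did not pair the samples: deviations of same-numbered arrays correlated at -0.13, 0.0093 and -0.0431. With the replicate block, 70 members had an unadjusted p below 0.05 (48 lower, 22 higher) and 75 did not overlap.

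Of the 24 members of smallest p without overlap (12 in each direction, unnamed accessions included), 24 stayed separated under median scaling, 23 under the percentile over bright probes and in the deposited matrix, 22 under quantile normalization and 19 under normexp. The other settings could not make separated groups meet. Signs turned for the following, and the cause was not tested. Without WT replicates 1 and 2: 1110038B12Rik 0.029, Dleu2 0.22, Norad (the probe of 0.46) -0.10, 2410006H16Rik 0.14, Tug1 -0.33, Snhg10 0.026, Gm5523 0.29, Gm12070 0.35, Gm10653 0.56, Rnu12 0.010, Gm6994 1.16, 1700110I01Rik 1.43, Gm10845 0.10, Bmp1 0.059, Zfp672 0.41, Tubb2a-ps2 -0.31, Appbp2os 0.32 and Map2k3os 0.23. Under the percentile over bright probes: Dleu2 0.40, Mir22hg 0.18, Tug1 0.30, Snhg10 0.073, Gm5523 0.47, Gm12070 0.45, Gm10653 0.18, Gm6994 0.10, 1700110I01Rik 0.25, Bmp1 0.35, Zfp672 0.25, Tmem80 0.10, Smarca5-ps 0.0197 and Map2k3os 0.24. Under quantile normalization: Dleu2 0.36, Gm5523 0.31, Gm12070 0.30, Gm10653 0.21, Gm6994 0.19, 1700110I01Rik 0.33, Bmp1 0.18, Pdxk-ps -0.029 and Atad3aos -0.19. Under median scaling: Dleu2 0.064, Gm5523 0.14, Gm12070 0.12 and Bmp1 0.012. Under normexp: Gm5523 0.0024 and Gm12070 0.0043. In the deposited matrix: Gm6548 -0.054. Leaving out 1 array gave ranges across 0 for 1700110I01Rik (-1.06 to 0.31), 2410006H16Rik (-0.90 to 0.062), Atad3aos (-2.05 to 1.22), Bmp1 (-0.27 to 0.10), Dleu2 (-0.23 to 0.090), Gm10653 (-0.72 to 0.016), Gm12070 (-0.21 to 0.17), Gm5523 (-0.15 to 0.13), Gm6548 (-0.12 to 0.16), Gm6994 (-1.14 to 0.12), Map2k3os (-0.47 to 0.079), Pdxk-ps (-0.047 to 0.18), Snhg1 (-0.15 to 0.48), Tug1 (-0.12 to 0.70) and Zfp672 (-0.55 to 0.062).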
